A study of Mus musculus with 1037 samples.

Results

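Glucose use was followed in cells of the mouse hair follicle through 10 genes: Slc2a1, Hk1, Hk2, Pfkl, Aldoa, Eno1, Pkm, Ldha, Ldhb and Pdk1. They were chosen by name, by matching the gene identifiers of the counts to a mouse annotation, and make up 10 of 55335.0 identifiers. All of them had counts. Single cells of wild-type CD1 mice had been sorted into wells and sequenced by Smart-seq2, a method that copies whole polyadenylated transcripts and here carried no molecular identifiers. The outer root sheath (ORS), the epithelial sleeve around the hair shaft that also houses hair follicle stem cells (HFSCs), was sampled in late anagen (AnaVI, postnatal day 15), in CatVI (day 17) and in CatVII (day 18), the last 2 being stages of catagen, in which the follicle regresses. At AnaVI the sort titled LOS holds the lower ORS, and the sorts titled MOS and UOS are both labelled upper-middle ORS. The catagen sorts are labelled upper ORS. CatVI was sorted into plates titled PhagoHFSC alive (plates 1 and 2), PhagoHFSC apop (plate 5) and NonPhagoHFSC apop (plate 6), called here Phago alive, Phago apop and NonPhago apop, and CatVII into OSalive and OSapop. The labels do not spell out these titles. In the study's gating, live cells lacked annexin V, which marks dying cells, and CD34+ integrin α6+ cells were taken after removal of cells positive for Sca1, CD31, CD117, CD140a or CD45.

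Analysis was limited to cells in which 2000 genes or more were detected. These were 39 of 93 cells in LOS, 38 of 72 in MOS, 19 of 88 and 9 of 73 in Phago alive plates 1 and 2, 15 of 85 in Phago apop and 14 of 69 in NonPhago apop. In UOS 83.6% of the cells passed and 22 did not, in OSalive 80.1% passed and 31 did not, and in OSapop 65.2% passed and 49 did not, which brought the 9 groups to 463 cells. Cells of several mice were pooled before sorting, so each group is 1 sample. No difference between groups could therefore be tested, no p-value is given, and stage, sort and plate cannot be told apart. The counts of a group were summed and expressed per 1000000 of its gene counts (CPM). Limits in parentheses are exact 95% limits. They cover counting error only, and reads amplified without molecular identifiers are not independent molecules.

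Glycolysis breaks glucose down to pyruvate in the cytosol and yields ATP without oxygen. Glucose enters through carriers of the SLC2 family and is trapped by a hexokinase, the phosphofructokinase step commits it, aldolase splits the sugar, and enolase and pyruvate kinase complete the path to pyruvate. Lactate dehydrogenase interconverts pyruvate and lactate with subunits encoded by Ldha and Ldhb, the first favouring lactate formation and the second pyruvate formation, and pyruvate dehydrogenase kinases such as PDK1 keep pyruvate out of mitochondrial oxidation. In HFSCs, lactate dehydrogenase activity is known for its part in stem cell activation. Several of these genes, Ldha, Hk2 and Pdk1 among them, are textbook targets of the hypoxia-inducible factors. These factors bind DNA at the core RCGTG, where R is A or G.

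Only the form ACGTG, called the core below, was searched, on both strands, and the form GCGTG was not. The search covered the 250 bases before the start of the canonical transcript of each gene in GRCm39. ACGTG was present in 3 of the 10 genes, Ldha, Hk2 and Aldoa, and in 3680 of 21604 protein-coding genes (17.03%). The sequences of Ldha and Hk2 are shown because both hold the core and the results turn on these genes. They run 5′ to 3′ towards the gene, with matches of the core on either strand in capitals, and stop where another annotated exon of the same gene begins. Ldha is shown at chr7:46495013-46495131 (+ strand) and Hk2 at chr6:82751470-82751702 (- strand).
Ldha: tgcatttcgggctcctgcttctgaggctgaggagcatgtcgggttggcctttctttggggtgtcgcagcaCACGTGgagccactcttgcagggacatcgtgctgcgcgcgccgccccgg
Hk2: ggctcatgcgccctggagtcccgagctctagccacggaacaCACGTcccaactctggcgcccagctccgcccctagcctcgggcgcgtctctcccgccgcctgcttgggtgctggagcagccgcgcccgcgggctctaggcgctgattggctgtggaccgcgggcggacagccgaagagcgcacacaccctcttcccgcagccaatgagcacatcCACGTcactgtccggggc
In Ldha the core occurred at 3 places, the farthest from the start being the one shown. At 2 of the 3 it formed the palindrome CACGTG, which holds the core on both strands and is also the E-box of other factors. In Hk2 both places, near the ends of the stretch shown, read CACGT on this strand. Pdk1 had no match of ACGTG in this window. A match describes the letters and is not a measured binding site.

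Depth differed widely, from 1840012 gene counts in NonPhago apop to 287377663 in OSalive. A single identifier that is not in the annotation took 56.3 to 66.5% of each group's counts, which lowered the CPM of all other genes. All identifiers not in the annotation together took 71.3 to 80.7% by group, with 74.9% in UOS and 80.7% in OSalive. The 5 markers of ORS keratinocytes (Krt5, Krt14, Itga6, Itgb4 and Sox9) were above 3 counts in all 9 groups and summed to between 845 CPM in Phago alive plate 2 and 5934 CPM in Phago apop. Other cells were present. In LOS the 6 fibroblast markers summed to 1405 CPM against 353 in UOS, and in 11 of 39 LOS cells a marker list of another cell type outweighed the keratinocyte list. This held for 8 cells in UOS, 3 of 9 in Phago alive plate 2 and 0 to 2 in each of the other groups. Values without these cells are given where they change a call or a level by much. Phago alive plates 1 and 2 carry the same label, and 45.3% of 3791 genes differed between them by more than 2-fold (12.8% higher and 32.5% lower in plate 2), the only measure of the spread between plates in these data. Ratios are given as log2 of CPM, a ratio past 2-fold is one of 1 or more in size, and a gene entered a comparison if both groups together held 100 counts of it. In pooled cells, fewer cells of a type and less RNA per cell cannot be told apart.

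**Figure D1:**
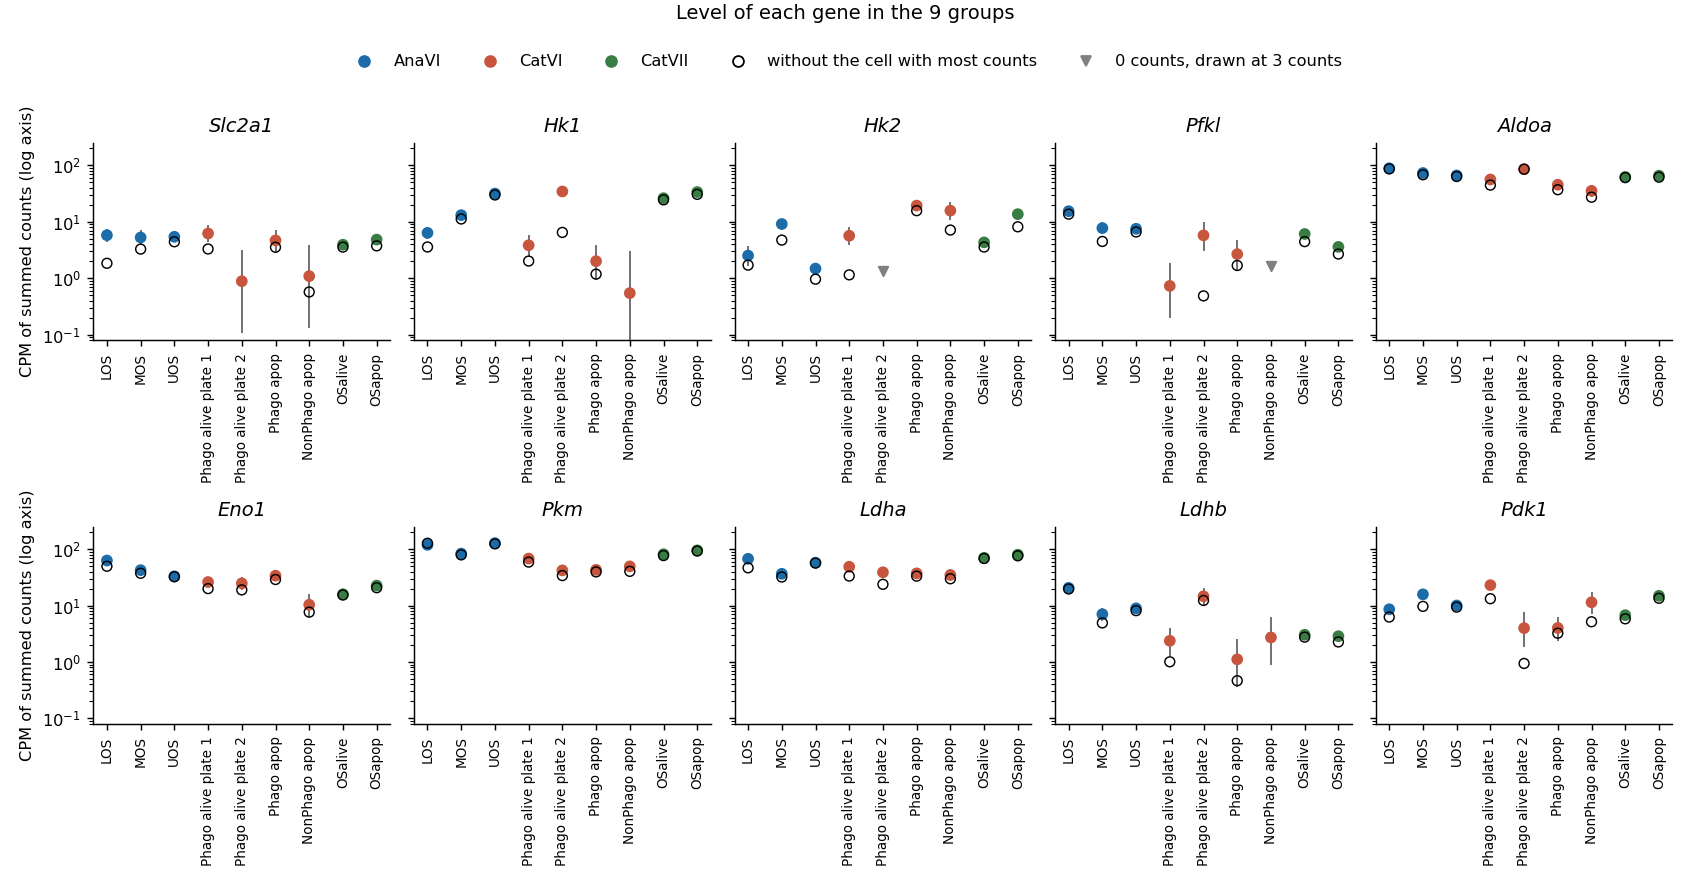
CPM of the 10 genes in each group on a log axis, with exact 95% Poisson limits as bars and, as open circles, the value without the cell that holds most counts of the gene. With all passing cells, Pkm, Aldoa and Ldha stay between 34.8 and 127.4 CPM in all 9 groups, whereas Hk1 ranges from 0.543 to 34.4 CPM. Without cells led by markers of other cell types, which is not drawn, Ldha is at 8.61 CPM in Phago alive plate 2.

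The 10 genes together held 397 CPM in LOS, 293.3 in MOS and 349 in UOS. At CatVI they held 240.7 and 250.8 CPM in Phago alive plates 1 and 2, 193.1 in Phago apop and 161.4 in NonPhago apop. At CatVII they held 279.6 CPM in OSalive and 336 in OSapop. All 4 CatVI plates were below all groups of the other stages. Per kilobase of canonical transcript, the scale on which levels of different genes can be compared, Pkm led in UOS with 52.1 CPM per kilobase, before Aldoa with 43.9, Ldha with 36.1 and Eno1 with 14.4. Hk1 (7.39), Ldhb (5.83), Pdk1 (1.90), Pfkl (1.83), Slc2a1 (1.22) and Hk2 (0.190) followed. In OSalive the order at the top was Ldha with 44.1, Aldoa with 41.3 and Pkm with 33.1 CPM per kilobase, and in LOS it was Aldoa with 58.8, Pkm with 48.7 and Ldha with 42.4. For scale, Aldoa stood at 37.2 and 56.7 CPM per kilobase in the 2 plates of the same label.

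Slc2a1 (chr4:118965908-118996365), the basal glucose carrier GLUT1, was low throughout. It stood at 5.79 CPM in LOS, 5.27 in MOS, 5.41 in UOS, 3.92 in OSalive and 4.83 in OSapop. At CatVI it stood at 6.20 and 0.883 CPM in Phago alive plates 1 and 2, 4.67 in Phago apop and 1.09 in NonPhago apop, where plate 2 and NonPhago apop held 2 counts each. In LOS 1 cell gave 72.6% of the counts, and without it the level was 1.84 CPM. In no comparison with enough counts was Slc2a1 past 2-fold, but without the cell with most counts in each sort LOS against UOS was at -1.27.

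The hexokinase genes were past 2-fold in more comparisons than the other 8 genes. Hk1 (chr10:62104621-62215687) encodes the housekeeping hexokinase and Hk2 (chr6:82699740-82751469) the inducible enzyme of muscle, fat and many tumours. Hk1 stood at 31.7 (30.3 to 33.01) CPM in UOS, 26.2 (25.6 to 26.8) in OSalive and 33.7 (32.3 to 35.01) in OSapop. It was lower in MOS, at 13.1 (10.8 to 15.8) CPM, and in LOS, at 6.35 (4.93 to 8.04), or 3.57 without the cell that gave 58.8% of the LOS counts. At CatVI it stood at 3.83 CPM in Phago alive plate 1, 2.002 in Phago apop and 0.543 in NonPhago apop. Phago alive plate 2 had 34.4 CPM, but 87.2% of these counts came from 1 cell, and without it the plate was at 6.47 CPM. UOS, OSalive and OSapop were thus the high groups. The share of cells with a count was read after each cell had been thinned to 50000 gene counts, with shallower cells left out. It showed the same groups, with 52.3% in UOS, 50.8% in OSalive and 47.1% in OSapop, against 25% in MOS, 17.4% in LOS, 11.1% and 12.5% in the Phago alive plates and 13.3% in Phago apop. In NonPhago apop 1 of 14 cells had a count before thinning. Before thinning, the shares were 75% in UOS, 78.4% in OSalive, 66.3% in OSapop and 28.2% in LOS.

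Hk2 ran in another order. It stood at 1.48 (1.204 to 1.80) CPM in UOS, 2.52 (1.66 to 3.67) in LOS and 4.31 (4.07 to 4.55) in OSalive. Without the cells led by markers of other types, LOS held 9 counts (1.14 CPM) and was below UOS, at 1.62 CPM. MOS had 9.13 (7.22 to 11.4) CPM and OSapop 13.6 (12.8 to 14.5). Phago apop had 19.4 (15.5 to 23.9) CPM, NonPhago apop 15.8 (10.6 to 22.6), Phago alive plate 1 5.65 (3.84 to 8.02) and Phago alive plate 2 no count, where 3 counts would be 1.32 CPM. The 3 groups titled apop were the 3 highest. Single cells weighed on these values: 52.6% of the counts in MOS came from 1 cell, 80.6% in Phago alive plate 1, 62.1% in NonPhago apop and 42.6% in OSapop. Without that cell MOS stood at 4.73 CPM, Phago alive plate 1 at 1.14, NonPhago apop at 7.13, Phago apop at 15.7, OSapop at 8.14 and OSalive at 3.56, so each group titled apop remained above those titled alive of its stage. After thinning, 46.7% of the cells of Phago apop had a count of Hk2, against 16.7% in NonPhago apop, 17.6% in OSapop, 9.68% in OSalive and 3.604% in UOS. Before thinning these shares were 60%, 28.6%, 28.3%, 24% and 10.7%. Phago alive plate 1 had 11.1% after thinning and 21.1% before, MOS 12.5% and 13.2%, and LOS 8.70% and 12.8%. The thinned share of NonPhago apop was 2 of 12 cells, so by share of cells only Phago apop stood apart.

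As a share of the counts of both hexokinase genes, Hk1 took 95.5% (94.6 to 96.4) in UOS, 85.9% (85.1 to 86.6) in OSalive and 71.2% (69.6 to 72.7) in OSapop. It took 71.6% (61.4 to 80.4) in LOS and 58.9% (51.6 to 66.02) in MOS. In Phago apop it took 9.38% (4.38 to 17.1) and in NonPhago apop 3.33% (0.0844 to 17.2), so Hk2 held most of the counts there. Phago alive plates 1 and 2, at 40.4% and 100%, stood far apart under the same label. Among the 15 cells of Phago apop, 3 had counts of both genes, 2 of Hk1 alone, 6 of Hk2 alone and 4 of neither. In UOS 10 cells had both, 74 Hk1 alone, 2 Hk2 alone and 26 neither.

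**Figure D2:**
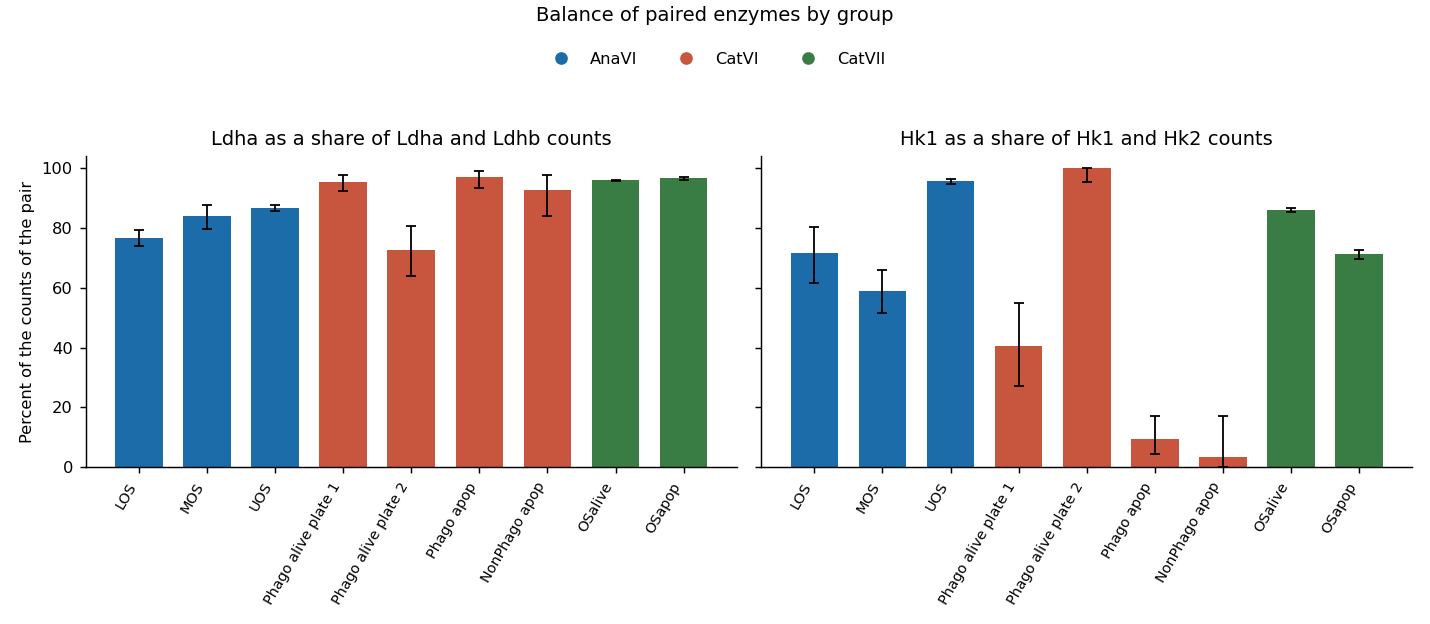
Ldha as a percent of the counts of Ldha and Ldhb, and Hk1 as a percent of the counts of Hk1 and Hk2, in each group, with exact 95% binomial limits as bars. Ldha took 76.6% in LOS and 95.9% in OSalive, and Hk1 took 95.5% in UOS and 9.38% in Phago apop.

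Pfkl (chr10:77818084-77845922), the liver-type subunit of phosphofructokinase, stood at 15.4 (13.1 to 17.9) CPM in LOS, 7.72 in MOS, 7.51 in UOS, 6.07 in OSalive and 3.59 in OSapop. At CatVI there were 0.729 and 5.74 CPM in the Phago alive plates, 2.67 in Phago apop and no count in NonPhago apop, where 3 counts would be 1.63 CPM. LOS was the highest group and remained so at 16.2 CPM without the cells led by markers of other types. Of the 13 counts in Phago alive plate 2, 92.3% came from 1 cell. Without the cells led by markers of other types, that plate held 1 count (0.662 CPM).

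Aldoa (chr7:126393822-126399923) encodes the main aldolase of most tissues. It stood at 88.8 CPM in LOS, 73.1 in MOS, 66.3 in UOS, 62.4 in OSalive and 65.6 in OSapop, with 56.2 and 85.7 CPM in the Phago alive plates, 45.4 in Phago apop and 35.3 in NonPhago apop. No comparison placed it past 2-fold. Eno1 (chr4:150321073-150337027), enolase 1, stood at 62.8 (58.1 to 67.7) CPM in LOS, 42.4 (38.1 to 46.97) in MOS, 32.9 (31.6 to 34.3) in UOS and 15.9 (15.4 to 16.4) in OSalive. It stood at 22.6 CPM in OSapop, 26.1 and 24.7 in the Phago alive plates, whose limits overlapped, 33.8 in Phago apop and 10.3 in NonPhago apop. LOS and NonPhago apop were at the ends of this range. After thinning, 78.3% of LOS cells, 75% of MOS cells and 63.96% of UOS cells had a count of Eno1, against 41.9% in OSalive and 43.5% in OSapop. Before thinning these shares were 76.9%, 78.9%, 81.2%, 76.8% and 60.9%. The retrocopy Eno1b resembles Eno1 closely, so the split of reads between them is uncertain. Eno1b stood at 19.7 CPM in LOS, 11.4 in UOS and 4.72 in OSalive, in the same order.

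Pkm (chr9:59563364-59586663), the pyruvate kinase gene of most tissues, stood at 119.2 CPM in LOS, 83.2 in MOS and 127.4 in UOS, and at 81.1 in OSalive and 94.99 in OSapop. The CatVI plates were lower, with 68.01 and 41.9 CPM in Phago alive plates 1 and 2, 42.9 in Phago apop and 49.5 in NonPhago apop. The limits of no CatVI plate, which cover counting error of the summed counts only, overlapped those of a group of another stage. With each cell given the same weight, however, Phago alive plate 2 stood at 80.1 CPM and OSalive at 80.3. Gene counts do not separate the splice forms of Pkm.

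**Figure D3:**
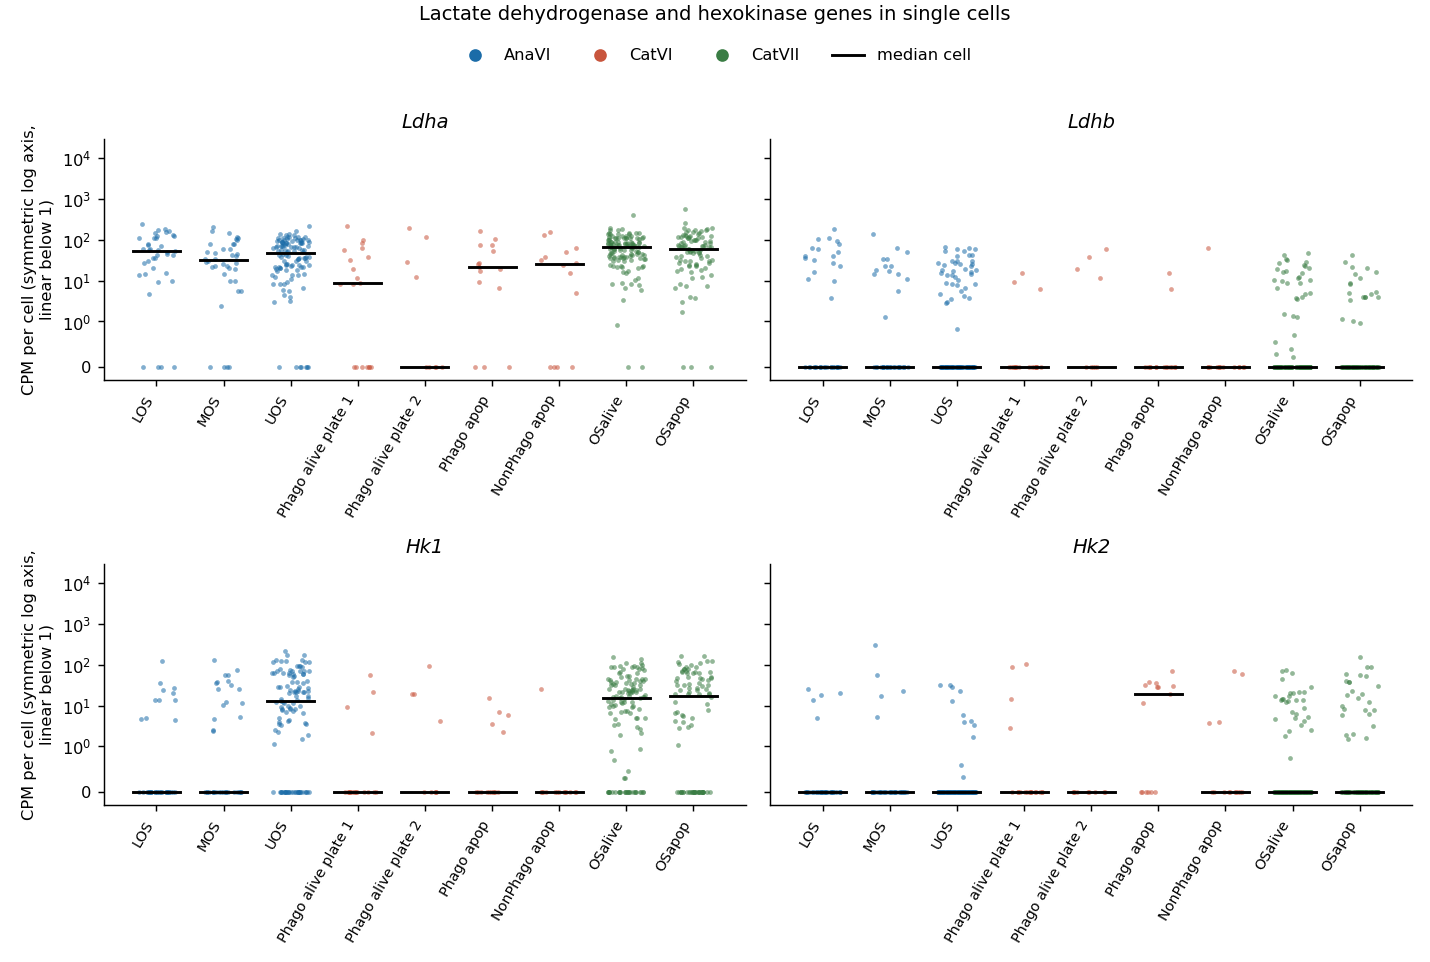
CPM of Ldha, Ldhb, Hk1 and Hk2 in each of the 463 cells, on a symmetric log axis that is linear near 0, with the median cell as a bar. The median cell has no Ldhb count in any of the 9 groups, while the median of Ldha lies at 48.1 CPM in UOS and 65.2 in OSalive.

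The lactate dehydrogenase genes parted between anagen and CatVII. Ldha (chr7:46490899-46505061) stood at 67.4 (62.5 to 72.5) CPM in LOS, 36.5 (32.6 to 40.8) in MOS and 57.3 (55.5 to 59.2) in UOS. It stood at 48.7 and 38.9 CPM in the Phago alive plates, 37.2 in Phago apop and 34.8 in NonPhago apop. OSalive had 70.01 (69.04 to 70.98) CPM and OSapop 79.6 (77.5 to 81.6). Ldhb (chr6:142435672-142454586) stood at 20.5 (17.9 to 23.4) CPM in LOS, 7.02 (5.36 to 9.04) in MOS and 8.91 (8.22 to 9.65) in UOS. It was at 3.03 (2.83 to 3.24) CPM in OSalive and 2.86 (2.49 to 3.28) in OSapop, whose limits overlapped. At CatVI it was at 2.37 CPM in Phago alive plate 1, 1.11 in Phago apop and 2.72 in NonPhago apop, but at 14.6 in plate 2. After thinning, 39.1% of LOS cells, 28.1% of MOS cells and 23.4% of UOS cells had a count of Ldhb, against 15.3% in OSalive and 10.6% in OSapop. Before thinning these shares were 46.2%, 36.8%, 37.5%, 27.2% and 21.7%. The thinned shares for Ldha were 78.3%, 75%, 75.7%, 86.3% and 85.9%, and those before thinning 89.7%, 89.5%, 93.8%, 98.4% and 96.7%.

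The ratio of Ldha to Ldhb counts, which needs no scaling to a total, was 3.28 (2.82 to 3.83) in LOS, 5.20 (3.93 to 6.97) in MOS and 6.43 (5.91 to 7.02) in UOS. It was 23.1 (21.6 to 24.8) in OSalive and 27.8 (24.2 to 32.1) in OSapop. Both CatVII sorts stood above the 3 AnaVI sorts with no overlap of the limits. The CatVI plates lay on both sides, with 20.5 (11.8 to 39.1) in Phago alive plate 1, 2.67 (1.77 to 4.11) in plate 2, 33.4 (14.03 to 104.2) in Phago apop and 12.8 (5.21 to 40.8) in NonPhago apop. In plate 2 melanocyte markers stood at 146.2 CPM against 8.57 in plate 1. Without its 3 cells led by markers of other types, plate 2 held 13 counts of Ldha (8.61 CPM) and 33 of Ldhb (21.9 CPM), so Ldha no longer exceeded Ldhb there. Both genes were found in 40 UOS cells and Ldhb alone in 2, in OSalive in 32 and 2 cells, and in OSapop in 20 and 0.

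Pdk1 (chr2:71703488-71734202) encodes a kinase that inactivates pyruvate dehydrogenase. It stood at 8.58 (6.92 to 10.5) CPM in LOS, 15.8 (13.2 to 18.7) in MOS, 10.02 (9.29 to 10.8) in UOS, 6.75 (6.45 to 7.05) in OSalive and 14.9 (13.98 to 15.8) in OSapop. The CatVI plates had 22.97 and 3.97 CPM in Phago alive plates 1 and 2, 4.004 in Phago apop and 11.4 in NonPhago apop. Without the cell with most counts, Pdk1 stood at 13.2 and 0.940 CPM in the Phago alive plates, 5.16 in NonPhago apop and 9.66 in MOS. No CatVI level of Pdk1 can be set apart from the spread between the 2 plates of the same label. After thinning, 28.2% of OSapop cells and 15.3% of OSalive cells had a count of Pdk1, and before thinning 43.5% and 46.4%.

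The first comparison set the sorts of the anagen follicle side by side. Between LOS and UOS, 3 of the 10 genes were past 2-fold, against 28.4% of 11473 genes (14.1% higher and 14.3% lower in LOS). Ldhb was higher in LOS by 1.204 (0.97 to 1.43) and Pfkl by 1.04 (0.77 to 1.29), and Hk1 was lower, at -2.32 (-2.69 to -1.97), or -3.06 without the cell with most counts in each sort. Eno1 was at 0.93 (0.80 to 1.06), short of 2-fold. The median of the 10 genes was 0.33, against 0.04 for all genes. Without the cells led by markers of other types Hk1 was at -2.14, Ldhb at 1.10, Pfkl at 1.28 and Eno1 at 1.26, now past 2-fold. With TMM scaling Ldhb (0.91) and Pfkl (0.75) fell short, and with each cell given the same weight Pfkl was at 0.20. Between MOS and UOS, 2 of the 10 were past 2-fold, against 29.7% of all genes (6.56% higher and 23.2% lower in MOS). Hk2 was higher in MOS by 2.63 (2.18 to 3.07), or 2.30 without the cell with most counts in each sort, and Hk1 was lower, at -1.27 (-1.56 to -0.997). The medians were 0.00 for the 10 genes and -0.31 for all.

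The second comparison set live catagen sorts, labelled upper ORS, against UOS of anagen, labelled upper-middle ORS, so that stage and region cannot be told apart. Between OSalive and UOS, 3 of the 10 genes were past 2-fold, against 38.2% of all genes (11.5% higher and 26.6% lower in OSalive). Hk2 was higher at CatVII by 1.54 (1.25 to 1.85), and Ldhb (-1.56, limits -1.71 to -1.41) and Eno1 (-1.05, limits -1.13 to -0.98) were lower. Ldha was at 0.29 (0.24 to 0.34) and Pkm at -0.65 (-0.69 to -0.62). The medians were -0.39 for the 10 genes and -0.32 for all. With TMM scaling Eno1 fell short of 2-fold, at -0.61, while Ldhb was at -1.12 and Hk2 at 1.98. Scaled to the counts of annotated identifiers only, Eno1 was at -0.68, Ldhb at -1.18 and Hk2 at 1.92. All 5 markers of the inner root sheath and hair cortex were lower in OSalive, at a sum of 2.51 CPM against 815 in UOS. Without cells led by markers of other types Eno1 was just short of 2-fold, at -0.993, and Ldhb was at -1.62 and Hk2 at 1.42. Transcript length moved with this comparison: the median was -0.47 for genes of 1000 to 3000 bases, which include Ldhb and Eno1, and -0.22 for longer ones, which include Hk2. Its part in these values was not tested.

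Between the Phago alive plates, summed, and UOS, 4 of the 10 genes were past 2-fold, against 43.2% of all genes (14.9% higher and 28.3% lower at CatVI). Hk2 was higher at CatVI by 1.44 (0.81 to 2.03), and Hk1 (-1.31), Pfkl (-1.77) and Pkm (-1.08, limits -1.21 to -0.94) were lower. Several of these rested on single plates or cells. Hk2 was at -0.26 without the cell with most counts in each group, and Hk1 was at -3.05 in plate 1 alone and at 0.12 in plate 2 alone. Pfkl was at -3.36 and -0.39 in the 2 plates, and Pkm at -0.91 and -1.60. The medians were -0.34 for the 10 genes and -0.21 for all. By transcript length the median was -0.56 for genes of 1000 to 3000 bases, Pkm among them, and 0.03 for longer ones, among them Hk1, Hk2 and Pfkl, and the part of length was not tested.

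**Figure D4:**
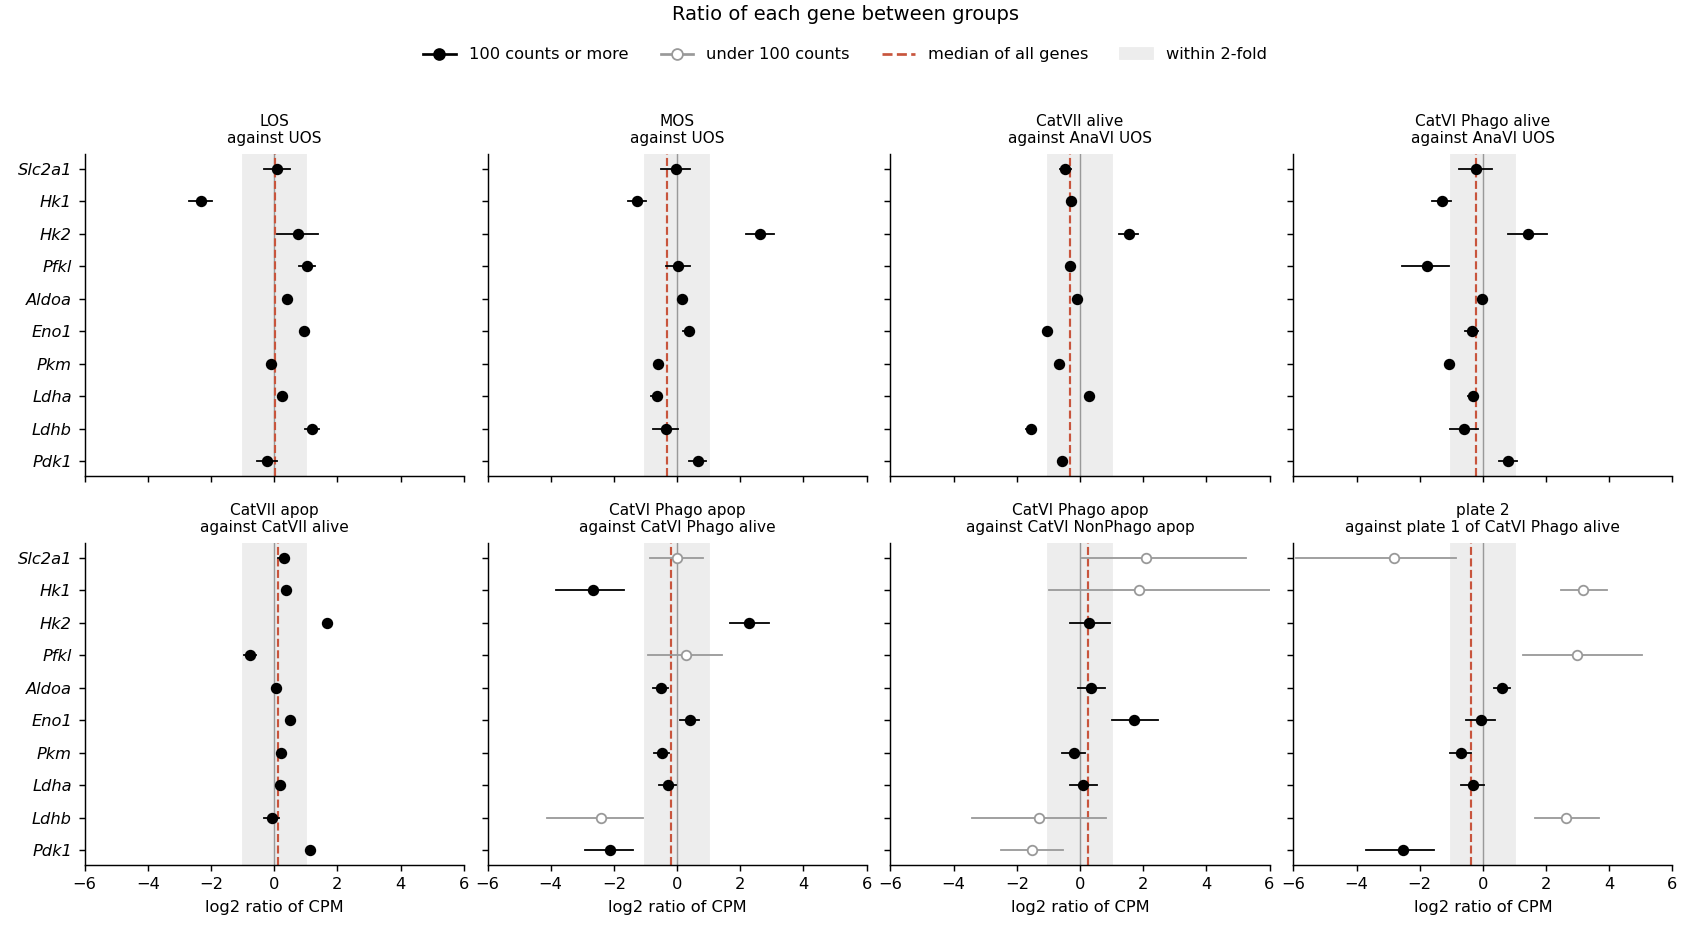
Log2 ratio of CPM of each gene in 8 comparisons, with exact 95% binomial limits, filled where the gene had 100 counts over both groups. The grey band marks ratios within 2-fold and the dashed line the median of all genes. Of the filled points, 5 of Hk2 and 4 of Hk1 lie outside the band, and none of Aldoa or Ldha.

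The third comparison set sorts titled apop against those titled alive of the same stage. At CatVII, OSapop exceeded OSalive past 2-fold in 2 of the 10 genes, against 10.6% of all genes higher and 11.3% lower (21.9% in either direction). These were Hk2, by 1.66 (1.54 to 1.78), and Pdk1, by 1.14 (1.03 to 1.25). Pfkl was at -0.76 (-0.95 to -0.57), Eno1 at 0.51, Hk1 at 0.36, Pkm at 0.23 and Ldha at 0.18. Of the 10 genes 8 lay above 0, with a median of 0.26 against 0.12 for all genes. The Hk2 ratio was 1.19 without the cell with most counts in each sort and 0.97 with each cell given the same weight, and that of Pdk1 was 1.21 and 0.83. Pdk1 also fell short of 2-fold with median-of-ratios scaling (0.95) and TMM scaling (0.91), where Hk2 was at 1.48 and 1.43. Erythrocyte markers summed to 34.3 CPM in OSapop and 2.52 in OSalive, and the median depth was 482288 and 2182588 counts per cell. With cells led by other markers left out, Hk2 was at 1.66 and Pdk1 at 1.13. The part of depth in these ratios was not tested.

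At CatVI, 7 of the 10 genes had 100 counts over Phago apop and the Phago alive plates, and 3 were past 2-fold, against 32.8% of 5260 genes (10.8% higher and 22% lower in Phago apop). Hk2 was higher in Phago apop by 2.27 (1.67 to 2.92), and Hk1 (-2.67, limits -3.84 to -1.69) and Pdk1 (-2.12, limits -2.92 to -1.41) were lower. The Hk2 ratio was 1.78 against plate 1 alone and 4.30 without the cell with most counts in each group, and that of Hk1 was then -1.90. Aldoa (-0.51), Pkm (-0.49), Ldha (-0.30) and Eno1 (0.40) were within 2-fold. Between Phago apop and NonPhago apop, 5 of the 10 genes had 100 counts, and 1, Eno1, was past 2-fold, at 1.71 (1.02 to 2.48), against 30.5% of 2838 genes (22.9% higher and 7.65% lower). Hk2 (0.30), Aldoa (0.36), Pkm (-0.20) and Ldha (0.10) had limits that included 0, and Hk2 was at 1.14 without the cell with most counts in each plate. Between the 2 Phago alive plates, 1 of 5 genes was past 2-fold, against 45.3% of all genes. This was Pdk1, at -2.53 (-3.69 to -1.56), and Pkm was at -0.70 and Aldoa at 0.61. The Phago apop ratios of Hk1 and Pdk1 were no larger than the difference between these 2 plates, where Hk1, just under 100 counts, was at 3.17. Hk2, with 31 counts in plate 1 and 0 in plate 2, was at -2.09 there with the 0 set to 3 counts. The size of its Phago apop ratio, 2.27, was close to this.

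**Figure D5:**
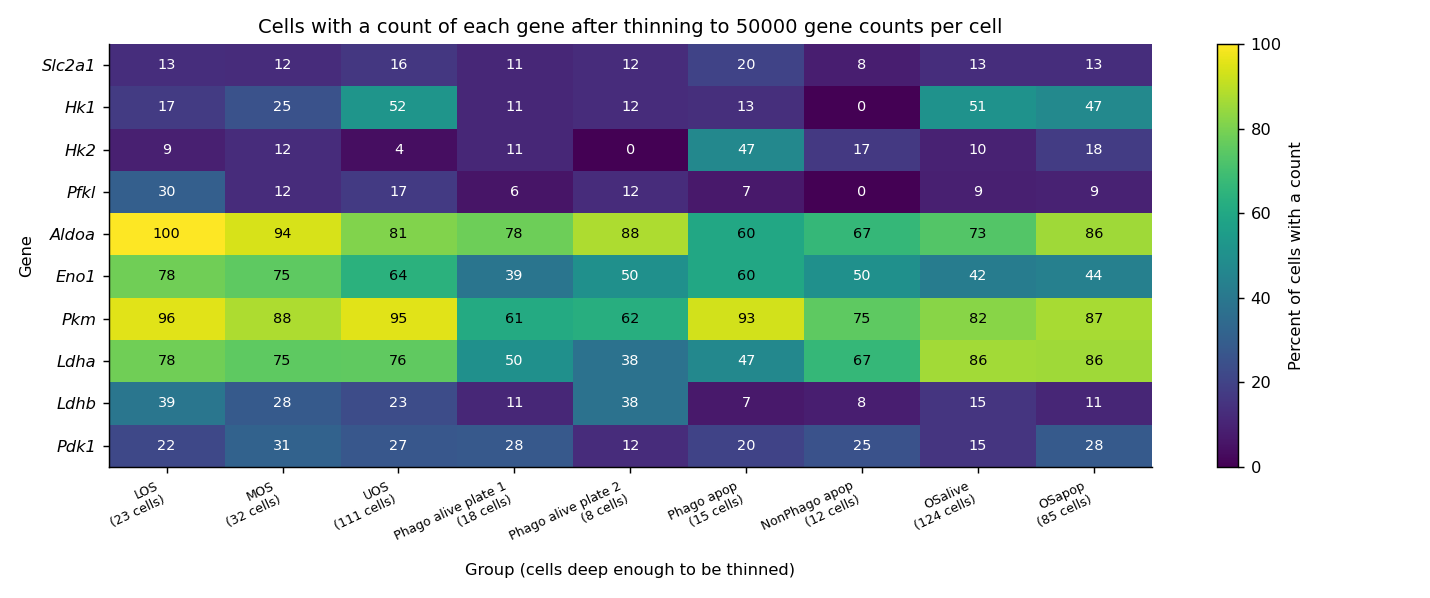
Percent of cells with a count of each gene after every cell was thinned to 50000 gene counts, by group, with the number of cells deep enough in brackets. Hk1 is found in 52.3% of UOS cells, 50.8% of OSalive cells and 47.1% of OSapop cells, and Hk2 in 46.7% of Phago apop cells.

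Other enzymes of the pathway were read from lists of names. Of 13 other glycolytic enzymes and glucose carriers with enough counts in OSalive against UOS, 1 was higher (Slc2a12) and 6 were lower (Slc2a3, Tpi1, Gapdh, Pgk1, Eno1b and Bpgm), with a median of -0.90 against -0.32 for all genes, of which 11.5% were higher and 26.6% lower. Gapdh, glyceraldehyde-3-phosphate dehydrogenase, stood at 107.3 CPM in LOS, 84.5 in UOS and 41.8 in OSalive, but its qPCR signal had been used to accept wells, so its level was in part selected. Tpi1, triose phosphate isomerase, stood at 37.3 CPM in UOS and 13.5 in OSalive. Pgk1, phosphoglycerate kinase and the first step that yields ATP, stood at 19.4 and 3.41 CPM, a ratio of -2.51. Tpi1, Gapdh and Pgk1, which act between aldolase and enolase, were thus lower at CatVII together with Eno1, while Aldoa and Ldha stayed within 2-fold. Pgam1, of the same stretch of the path, was not among the genes past 2-fold, and with TMM scaling Eno1 fell short, at -0.61. Of all genes of 1000 to 3000 bases, Gapdh and Eno1 among them, 32.6% were lower past 2-fold, and the part of length was not tested. Pfkp, the platelet-type phosphofructokinase, stood at 11.1 CPM in LOS, 45.8 in UOS, 24.6 in OSalive and 105.4 in Phago apop. In LOS against UOS 1 of 12 was higher (Bpgm) and 4 were lower (Slc2a3, Slc2a12, Pfkm and Pfkp), against 14.1% and 14.3% of all genes, so Pfkp and Pfkl differed between these sorts in opposite directions. In OSapop against OSalive 3 of 14 were higher (Pgk1 by 1.21, Slc2a3 by 1.11 and Bpgm by 1.38) and 2 lower (Eno2 and Slc2a12), against 10.6% and 11.3% of all genes.

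Slc16a7, which encodes the lactate carrier MCT2, stood at 64.2 CPM in LOS, 55.4 in MOS and 54.3 in UOS, at 16.1 in OSalive and 38.02 in OSapop. At CatVI Slc16a7 stood at 14.2 CPM in Phago alive plate 1, 0 in plate 2, 27.8 in Phago apop and 30.4 in NonPhago apop. Its ratio was -1.75 in OSalive against UOS and 1.24 in OSapop against OSalive. Slc16a1 (MCT1) was low, at 0.410 CPM in UOS and 2.28 in OSalive, and Bsg, the chaperone of MCT1, stood at 77.01, 55.99 and 54.2 CPM in UOS, OSalive and OSapop. Of 12 genes of pyruvate entry and the pyruvate dehydrogenase complex, 0 were higher and 4 lower in OSalive against UOS (Mpc1, Mpc2, Dld and Pdk4), against 11.5% and 26.6% of all genes. Mpc1, a subunit of the mitochondrial pyruvate carrier, stood at 12.6 CPM in UOS and 1.76 in OSalive. Pdk2, another kinase of the complex, stood per kilobase at 6.35 CPM in UOS and 12.6 in OSalive, where Pdk1 stood at 1.90 and 1.28. Among 7 genes of the pentose phosphate pathway, 0 were higher and 4 lower in OSalive against UOS, beside the same shares of all genes, with Taldo1 at 17.6 and 3.32 CPM and Tkt at 28.1 and 9.27 CPM. Of 6 regulators of glycolysis and gluconeogenic enzymes, 1 was higher (Tigar) and 1 lower (Pfkfb3) in OSalive against UOS, against 11.5% and 26.6% of all genes.

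Hypoxia regulators and targets outside glycolysis were read alongside. In LOS against UOS, 5 of 12 were higher and 0 lower, against 14.1% and 14.3% of all genes, with Epas1, which encodes HIF-2α, at 169.5 and 16.02 CPM and Egln3, an oxygen sensor of the pathway, at 33.2 and 9.77 CPM. Endothelial cells are known for Epas1, and their 3 markers summed to 63.3 CPM in LOS and 7.54 in UOS. Their part in this difference was not tested. In OSalive against UOS 0 of 13 were higher and 5 lower, against 11.5% and 26.6% of all genes. In OSapop against OSalive 2 of 13 were higher and 2 lower, against 10.6% and 11.3%, near the shares of all genes. Hif1a stood at 109.6 CPM in LOS, 95.7 in MOS and 83.8 in UOS, at 47.1 in OSalive and 47.9 in OSapop, and at 38.8, 13.7, 13.8 and 8.15 in Phago alive plates 1 and 2, Phago apop and NonPhago apop.

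Over the 9 groups, the mean of log2(CPM + 1) of the 10 genes ran most like that of Cavin1 (Pearson's r = 0.982), Hif1a (0.938), Rhoa (0.936), Eef2 (0.934) and Gm15459 (0.929), out of 1569 candidate genes, which were found in 75 cells and reached 50 CPM in a group. The groups differ in depth, and NonPhago apop, the shallowest, was lowest for all 5. Without it r was 0.967 for Cavin1 and 0.860 for Gm15459, the ends of the range. From cell to cell within a group, the median Spearman correlation over the 45 pairs of the 10 genes was 0.0553 in UOS, 0.0589 in OSalive and 0.0980 in OSapop, in sparse counts.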

How the data were processed

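Single cells of wild-type mice were profiled by Smart-seq2. Per the methods, trimmed reads were aligned to mm39 with STAR 2.6, quantified with Salmon 1.4.0 and compiled per gene in R 3.6.1, and the authors deposited estimated counts without normalization. Here the counts were rounded to whole numbers, spike-ins were left out, and cells under 2000 detected genes were dropped. Symbols, positions and transcript lengths came from GENCODE for GRCm39, the same build, where 93.3% of the identifiers matched. The identifiers without a match held 79.2% of the counts of the 9 groups. A gene at 0 in 1 group was set to 3 counts for a ratio. Limits are exact Poisson (CPM), binomial (ratios) or Clopper-Pearson (shares of cells). The median depth was 90483 to 2182588 gene counts per cell by group. In UOS, OSalive and OSapop 46, 100 and 52 passing cells share a well name with another passing cell of the sort, so plates within these sorts could not be separated. CatVI plates 3 and 4, titled NonPhagoHFSC alive, had no passing cell. One sequence is not reported here.

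Each group is 1 pooled sample, so no test was run. Genes named besides the 10 are those of the lists past 2-fold in a comparison or among the 3 most abundant of their list in a group, and the 5 genes most like the 10. The 10 genes and all lists were chosen with earlier results of these data known. The ratio code was tested on simulated counts. Alternatives changed the scaling, the weight of cells, the filters, the depth, and single cells or plates. Python 3.11.15, numpy 2.4.6, scipy 1.17.1, R 4.3.3 and edgeR 4.0.16 (TMM scaling only) were used.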

Additional observations from a re-analysis of the deposited data

Results flagged for a closer look

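For 5 genes the ratio of apop to alive lay on opposite sides of 0 at the 2 catagen stages, with limits of counting error that excluded 0. The difference between the stages was not tested, since each group is 1 pooled sample. The log2 ratio was -2.67 at CatVI and 0.36 at CatVII for Hk1, -0.51 and 0.0736 for Aldoa, -0.49 and 0.23 for Pkm, -0.30 and 0.18 for Ldha, and -2.12 and 1.14 for Pdk1. For 3 of the 5 a sign changed with the setting. Aldoa ranged from -0.16 to 0.14 at CatVII. Pkm ranged from -0.66 to 0.0335 at CatVI and from -0.00385 to 0.29 at CatVII, and Ldha from -0.39 to 0.18 and from -0.0576 to 0.26. Hk1 and Pdk1 kept their signs in the settings run at both stages. Settings with a single Phago alive plate exist only at CatVI. Pdk1 stood at 4.004 CPM in Phago apop, against 22.97 in plate 1 but 3.97 in plate 2. After thinning, 13.3% of Phago apop cells had a count of Hk1, against 11.1% and 12.5% in the 2 plates. Between the Phago alive plates of the same label Pdk1 differed by -2.53 and Hk1 by 3.17. Hk2 was higher in the apop sort at both stages, by 2.27 and 1.66. The Phago alive plates held 31 and 0 counts of it, however, with 80.6% of the 31 from 1 cell. The CatVII ratio of Hk2 was 0.97 with each cell given the same weight.

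A passing cell titled OSapop carries the stage label CatVI and was left out of all groups. It held 52544 gene counts, and 2 of the 10 genes were above 3 counts in it, Ldha with 5 and Aldoa with 4. The cells of CatVI plates 3 and 4, all below the filter, held 1104 and 27556 gene counts in all, with 0 and 3 counts of the 10 genes.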

How the results depend on the processing

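Of the recomputed counts of genes past 2-fold, 97 stayed within 1.5 times the reported one and 19 did not. Of the recomputed single ratios, 697 lay within the counting limits of the reported one, 4 turned the direction of a ratio past 2-fold and the rest lay outside the limits in the same direction or without a call. With cells thinned to 50000 counts, fewer genes reached 100 counts, and the count was 1 for LOS against UOS, 1 for MOS against UOS, 1 for OSalive against UOS, 2 for Phago alive against UOS and 0 for the other comparisons. For OSapop against OSalive the count was 1 with median-of-ratios or TMM scaling and 0 with cells given equal weight, and for LOS against UOS it was 1 with TMM scaling. For Phago apop it was 0 against Phago alive plate 2 alone. For Phago apop against NonPhago apop it was 2 with equal weight, 5 with no minimum of counts and 2 without the cell with most counts. For plate 2 against plate 1 it was 2 with cells of 1000 detected genes, 6 with no minimum and 2 without cells led by markers of another cell type. With no minimum, genes of few counts enter, such as Pfkl with 12 counts in Phago apop and 0 in NonPhago apop. The 5 and 6 can therefore not be set beside the reported counts, and shares of all genes under these settings are not given. Both genes that turned did so in Phago alive against UOS: Hk2 was at -1.32 in cells of 4000 detected genes, -0.16 in plate 2 alone and -0.26 without the cell with most counts, and Hk1 was at 0.12 in plate 2 alone. Thinning aside, the cause was not tested. The alternatives without the cell with most counts, without cells led by other markers, with only cells of 50000 counts left unthinned, and the likeness without NonPhago apop were chosen after seeing the data. No paired analysis was possible because no replicate is labelled and cells of several mice were pooled. Depth limits the CatVI plates most, where Hk1, Hk2, Pfkl and Ldhb rest on 0 to 87 counts each.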
